A study of Mus musculus with 9 samples.

Results

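Aortic gene expression in mice given β-aminopropionitrile (BAPN) was compared between libraries with and without a gavaged agent, T-5224 or coenzyme Q10 (coQ10). The comparison used 7 of the 9 bulk RNA sequencing libraries from C57BL/6J mouse aorta, put on 2 sides by their treatment labels. Earlier results of these data were known when the comparison and the gene lists were chosen. All 7 came from mice given BAPN at 1 g/kg/day, and all mice were killed on day 28. On the side with an agent stood 1 library from BAPN with coQ10 at 10 mg/kg/day and 2 from BAPN with T-5224 at 5 mg/kg/day, both gavaged daily, starting on day 7 or 14. On the side without an agent stood 2 libraries from BAPN alone and 2 from BAPN with 12-O-tetradecanoylphorbol-13-acetate (TPA), injected into the peritoneum at 50 ng/g/day from day 1. The other 2 libraries, called normal here, came from mice that drank distilled water and are given beside the comparison. The normal libraries helped to set the scaling of all libraries but stood on neither side. The T-5224 libraries are titled 2 weeks and 3 weeks and were taken as replicates 1 and 2, as the labels number them. The titles may give the length of gavage, which started on day 7 or 14 before killing on day 28, but this is not stated. Spread between replicates and length of treatment therefore cannot be told apart for T-5224. The coQ10 treatment is misspelled in the labels, and its reading as coQ10 rests on the protocol. The sources used here do not give sex, age or the number of mice behind a library, so the p-values measure the spread between these libraries, which may be technical. Because the 3 libraries with an agent were gavaged and the other 4 were not, gavage and agent cannot be told apart, and pooling unlike treatments makes the spread within a side partly a spread between treatments.

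BAPN blocks the lysyl oxidases that cross-link elastin and collagen, and in mice it weakens the aortic wall until it can tear and fill with blood. AP-1 is a family of transcription factors built from pairs of Fos, Jun and related ATF and BATF proteins, and it is induced within minutes by growth factors, mechanical strain and cytokines. TPA is a phorbol ester that activates protein kinase C and, through it, AP-1, whereas T-5224 was designed to block the binding of AP-1 to DNA. CoQ10 carries electrons in the respiratory chain and is a lipid-soluble antioxidant. Genes that answer AP-1 and its companion NF-κB in vessels include cytokines, chemokines, adhesion molecules and matrix-degrading enzymes.

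The libraries listed 13982 to 16204 genes above 0, and their depth is unknown because FPKM (fragments per kilobase of transcript, scaled to the library's reads) carry no counts. Haemoglobin transcripts took 68.9% to 74.1% of the FPKM sum in the 4 libraries without an agent, 5.40% in the coQ10 library and 40.8% and 11.2% in the T-5224 libraries. All values below are therefore scaled FPKM, in which each library was divided by a factor set by a median ratio. That ratio was taken over 9849 genes with an FPKM of at least 1 in all 9 libraries. T-5224 replicate 2 stood apart, with the fewest genes listed and a lower relative level of long transcripts (Spearman's rho of its deviation with transcript length, across genes, -0.325, against -0.118 to 0.228 in the other 6). Over the tested genes, Pearson's r of log2 values was 0.768 to 0.876 for the 12 pairs of libraries from different sides and 0.794 to 0.966 for the 9 pairs from 1 side. Smooth muscle genes that mark the aortic media were present in all 7 libraries at unequal levels. Tagln was at 1486 to 3099 against 461 to 1208 scaled FPKM on the sides with and without an agent. It was the only 1 of 20 contractile genes whose values did not overlap between the sides. Myh11 was at 47.7 to 990 against 64.3 to 303, and at 520 and 1771 in the normal libraries. The libraries also held varying amounts of skeletal muscle, airway and squamous epithelial transcripts.

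No gene passed the test of the pooled comparison. Of 12958 genes with a mean of at least 1 scaled FPKM, 0 (0.0%) had an adjusted p under 0.05 (limma on log2 of scaled FPKM plus 1, Benjamini-Hochberg), and the smallest adjusted p was 0.117, shared by 11 genes. At an unadjusted p under 0.05 stood 1704 genes (13.2%), of which 332 (2.56%) were higher and 1372 (10.6%) lower with an agent. The libraries of the 2 sides did not overlap in 1646 genes (12.7%): 456 (3.52%) were higher in all 3 libraries with an agent than in any of the other 4, and 1190 (9.18%) were lower. With 3 libraries against 4 an exact two-sided permutation test of a single gene cannot go below p = 0.0571, so a gene without overlap is a description and not a call.

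The split of these counts depended on the scaling. It was 606 higher and 1069 lower with upper-quartile scaling, 182 and 1378 with haemoglobin left out of the sum, 1002 and 629 with quantile normalization, 699 and 865 with the transcript-length trend removed, 1939 and 607 with the values as deposited, and 5736 and 182 in TPM. In TPM, where haemoglobin takes up the total, the median of all genes moved to 1.03 on the log2 scale, against -0.06 with the scaling used here, and 4920 higher and 175 lower genes passed. Without T-5224 replicate 2 the genes without overlap numbered 1797 higher and 2395 lower, and 17 higher and 63 lower genes passed. Leaving out another single library gave at most 982 higher and 1918 lower.

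The lower genes stood farther apart than the higher ones. The gap, the log2 distance between the nearest libraries of the 2 sides, had a median of 0.28 among the 1190 lower genes and 0.15 among the 456 higher genes. It was at least 1, a 2-fold distance on the log2 (scaled FPKM + 1) scale, in 92 lower genes (0.71% of those tested) and in 1 higher gene (0.00772%), Id1. Of the lower genes, 409 had a mean under 1 scaled FPKM on the side with an agent, and 24 were listed at 0 in all 3 of its libraries. Those 409 met the filter only through the side where they were high. Has1, Dusp2, Nfkbid, Rel, Ccr7, H2-Oa, Acap1, Rltpr and Tbc1d10c, described below, are among these 409. So are Resp18, Scg3, Vip, Colq, Dapl1 and Gal. Of the higher genes, 9 had a mean under 1 on the side without an agent. With a filter at a mean of at least 5, 389 genes were higher and 634 lower without overlap.

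**Figure D1:**
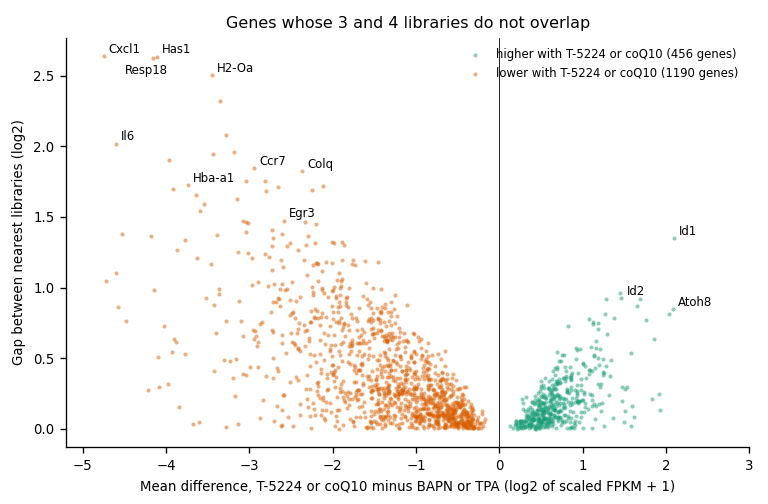
Each point is 1 of the 1646 genes whose libraries did not overlap between the sides; the x axis is the mean difference, T-5224 or coQ10 minus BAPN or TPA, in log2 of scaled FPKM + 1, and the y axis the gap between the nearest libraries of the 2 sides on the same scale. The lower genes reach a gap of 2.64 (Cxcl1, with Has1 and Resp18 beside it), the higher genes 1.35 (Id1).

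Inflammatory cytokines and chemokines were low with an agent, and one of them, Cxcl1, had the widest gap of all genes. Of the 24 genes listed as cytokines and chemokines, 20 were tested, 11 were lower without overlap (9.18% of all tested genes were) and 0 were higher (3.52% of all), and 0 passed the test. Without the filter on low values 13 of the 24 were lower without overlap, beside 9.37% of all genes. Their median difference was -2.24 on the log2 scale, against -0.06 for all tested genes. Cxcl1 (chr5:90891245-90893121, GRCm38.p6), which encodes a chemokine that attracts neutrophils, was at 2.35 with coQ10, 4.43 and 7.203 with T-5224, 448 and 328 with BAPN alone and 50.1 and 53.6 with TPA. The 3 libraries with an agent lay close to the normal libraries, at 2.39 and 1.56, and the BAPN libraries were the highest. The difference was -4.75 ± 0.83 (SE) on the log2 scale, with an adjusted p of 0.145 by limma and a gap of 2.64.

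Il6 (chr5:30013114-30019975), the gene of interleukin-6, which drives the acute phase response, followed a like order: 0.801 with coQ10, 1.17 and 1.3001 with T-5224, 264 and 179.7 with BAPN alone and 8.32 and 13.5 with TPA. The normal libraries were at 0 and 0.0883, below the libraries with an agent, and the TPA libraries lay between the latter and BAPN. The log2 difference was -4.60 ± 1.16 (SE) (limma, adjusted p = 0.165), with a gap of 2.02. Il1b, an interleukin made by activated myeloid cells, was at 1.07, 8.39 and 1.86 with coQ10 and T-5224 against 108 and 62.98 with BAPN and 102 and 13.6 with TPA, so TPA replicate 2 stood nearest to T-5224 replicate 1.

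The monocyte-attracting chemokines showed the BAPN libraries far above the rest. Ccl2 was at 2.199, 8.62 and 11.6 with an agent, 249 and 125 with BAPN and 20.3 and 21.7 with TPA, and Ccl7 at 0.605, 23.99 and 10.8, 466 and 250.1 and 40.3 and 51.4 in the same order. Cxcl2, a partner of Cxcl1 in neutrophil attraction, was at 1.43, 2.84 and 1.3001, then 121 and 88.3 and 6.31 and 12.2. Ccl5, which attracts T cells, differed by -3.04 on the log2 scale, and its BAPN libraries (29.99 and 60.1) were not set apart from its TPA libraries (31.4 and 23.04). Osm, the interleukin-6 family member oncostatin M, was at 2.05, 2.13 and 0 against 25.05 and 18.4 and 13.5 and 4.55.

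Csf3, the granulocyte growth factor, did overlap: it was at 66.5 and 49.5 in the BAPN libraries but at 0.143 and 1.06 in the TPA libraries, and at 0.136, 0.368 and 0 with an agent. For Cxcl1, Il6, Ccl2, Ccl7 and Cxcl2 too, both BAPN values lay above both TPA values. Against the 2 BAPN libraries alone, Il6 (adjusted p = 0.00393), Cxcl1 (0.0102), Cxcl2 (0.0102), Csf3 (0.00947), Ccl2 (0.0304), Il1b (0.0366) and Osm (0.0479) passed limma's test. In that setting 264 of 12718 tested genes passed. Against the 2 TPA libraries alone none of the cytokine and chemokine genes passed, beside 8 of 12745 tested genes. When each treatment was fitted as a group of its own, the log2 differences of Cxcl1 and Il6 were -4.91 and -4.65, over 9 or 7 libraries. That fit rests on the assumption that the single coQ10 library varies like the other groups.

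**Figure D2:**
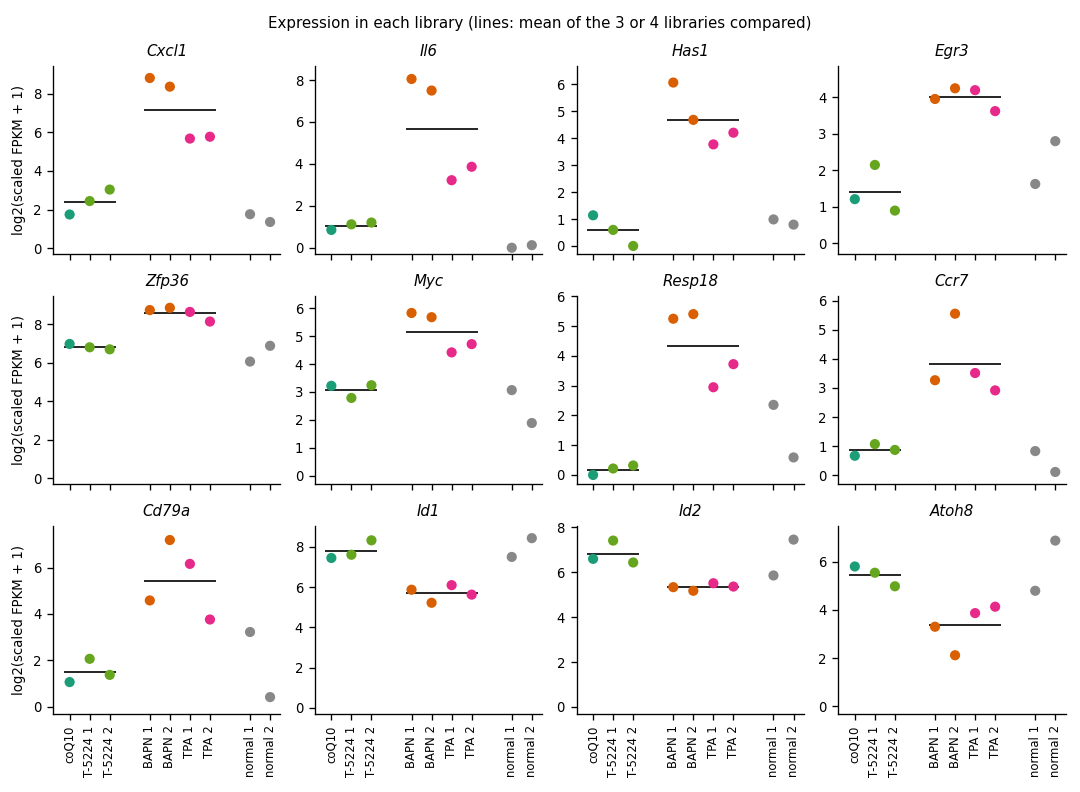
Each panel shows 1 gene; points are libraries (coQ10, T-5224 replicates 1 and 2, BAPN 1 and 2, TPA 1 and 2, normal 1 and 2), the y axis is log2 of scaled FPKM + 1, and lines mark the mean of the 3 libraries with an agent and of the 4 without one. In the first 9 panels the 3 libraries with an agent lie below the 4 without one, and for Id1, Id2 and Atoh8 above them; the normal libraries did not enter the comparison.

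Immediate early genes, the first genes switched on when a cell is stimulated, were lower with an agent almost throughout. Outside AP-1 itself, 14 of 19 tested members were lower without overlap and none higher, beside 9.18% and 3.52% of all tested genes. The median difference of the list was -1.30, and all 19 differences were below 0, whereas 0 genes passed. The mean log2 level of the list was 4.30 with coQ10 and 4.41 in each T-5224 library, 6.02 and 5.82 with BAPN alone, 5.72 and 5.51 with TPA and 4.07 and 4.49 in the normal libraries. BAPN and TPA libraries therefore lay close together here, unlike in the cytokines. In TPM, where the median of all genes was 1.03, 2 members were lower without overlap and 1 was higher, beside 1.45% and 45.8% of all genes.

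Egr3 (chr14:70077317-70082613), a zinc-finger transcription factor induced by serum and calcium signals, was at 1.304 with coQ10, 3.42 and 0.854 with T-5224, 14.5 and 17.9 with BAPN alone and 17.3 and 11.3 with TPA. No library with an agent reached the lowest of the others, and the normal libraries were at 2.08 and 5.94. It differed by -2.59 ± 0.35 (SE) with an adjusted p of 0.117 by limma, the lowest reached by any gene in the comparison, and it passed without T-5224 replicate 1 (0.0254) and without T-5224 replicate 2 (0.0427).

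Zfp36 (chr7:28376784-28379228) encodes tristetraprolin, which marks cytokine mRNAs for decay. It was at 124 with coQ10, 110.3 and 102 with T-5224, 424 and 460.0 with BAPN alone and 397 and 280.1 with TPA. The 3 libraries with an agent lay within a narrow range around the higher normal library (65.6 and 116 in the normal libraries), and the difference was -1.77 ± 0.29 (SE). Myc, a growth-promoting transcription factor, was at 8.33, 5.896 and 8.46 with an agent, 56.2 and 50.4 with BAPN and 20.4 and 25.3 with TPA. Dusp2, a phosphatase that switches off MAP kinases, was at 0.673, 0.144 and 0, then 6.998 and 12.6 and 3.03 and 3.45.

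Socs3, an inhibitor of interleukin-6 signalling, was at 11.1, 10.7 and 13.1 with an agent and at 27.9 and 32.7 with TPA, and its BAPN libraries (228 and 111) were the highest. Nr4a1, an orphan nuclear receptor, ran the other way within its side, with 263 and 277 under BAPN and 382 and 367 under TPA, against 120.3, 151 and 116 with an agent. Egr2 shared that order, with 1.01, 2.94 and 1.58 against 5.67 and 6.15 under BAPN and 19.5 and 11.1 under TPA.

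The 12 AP-1 subunits, the targets of T-5224 and the downstream factors of TPA, were split. Fosb, Fosl2, Junb and Batf were lower without overlap (4 of 12, beside 9.18% of all tested genes) and none was higher. In all, 11 of 12 differences were below 0 and 0 passed. The mean log2 level of the list was 4.12 to 4.63 with an agent and 4.94 to 5.71 without one. The list's median difference was -1.02, which turned to 0.06 in TPM, still under the median of 1.03 that all genes had there. Junb (chr8:84976909-84978748), an inducible Jun protein, was at 139 with coQ10, 151 and 162 with T-5224, 346 and 341 with BAPN alone and 358 and 233 with TPA. Its normal libraries were lowest, at 37.7 and 35.6, so the libraries with an agent lay between normal and BAPN. The difference was -1.06 ± 0.28 (SE) (limma, adjusted p = 0.19), and it turned to 0.22 in TPM.

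Fosb was at 5.93 with coQ10, 30.9 and 22.01 with T-5224, 80.5 and 63.1 with BAPN alone and 92.1 and 41.5 with TPA, a difference of -1.97 ± 0.53 (SE), and coQ10 was the lowest of the 7 libraries. Fosl2 (Fra-2) was at 27.1, 18.2 and 14.1 with an agent, 55.8 and 47.7 with BAPN and 29.2 and 28.98 with TPA, so that coQ10 came within 0.09 log2 of the TPA libraries, and its difference of -0.98 turned to 0.26 in TPM. Batf, an AP-1 member of lymphocytes, was at 0.861, 2.804 and 0, then 7.11 and 10.2 and 3.53 and 3.701.

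Fos itself (chr12:85473890-85477274) overlapped. It was at 34.6 with coQ10, 126 and 214 with T-5224, 158 and 200.4 with BAPN alone and 522 and 260.2 with TPA, and T-5224 replicate 2 exceeded both BAPN libraries. Its difference was -1.37 ± 0.65 (SE) (limma, adjusted p = 0.423). Jun overlapped as well, at 103, 78.1 and 163 with an agent against 116 and 139.6 and 204 and 142, with a difference of -0.42 that turned to 0.85 in TPM. Atf3, a stress-induced member, was at 24.9, 19.7 and 70.2 against 161 and 152 and 87.2 and 53.98, and T-5224 replicate 2 exceeded TPA replicate 2.

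The remaining 5 subunits overlapped between the sides. Jund, the constitutively expressed Jun protein, was at 168 to 182 in the 3 libraries with an agent and 129 to 195 in the 4 without one and was the single subunit with a difference above 0 (0.14). Atf2 was at 9.34 to 12.8 against 11.6 to 15.8 and Jdp2, a repressor that binds AP-1 sites, at 20.7 to 38.3 against 27.96 to 40.6. Fosl1 (Fra-1) was at 26.3 and 7.77 with BAPN but 0.757 and 2.498 with TPA and 1.08, 3.41 and 0.465 with an agent, a difference of -1.38 ± 0.88 (SE). Batf3 was at 0 to 1.46 against 0.45001 to 5.14, a difference of -0.83 ± 0.54 (SE).

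NF-κB genes were lower together with the cytokines. Of 14 tested subunits and feedback inhibitors, 10 were lower without overlap, beside 9.18% of all tested genes, and none was higher. The median difference of the list was -1.28, and 0 passed. Bcl3, a nuclear partner of NF-κB p50 and p52, was at 6.15 with coQ10, 6.38 and 4.299 with T-5224, 39.99 and 33.6 with BAPN alone and 14.9 and 15.998 with TPA, a difference of -1.93 ± 0.39 (SE). Tnfaip3 (A20), an enzyme that shuts off NF-κB signalling, was at 4.27, 1.87 and 1.28 with an agent, 35.1 and 30.4 with BAPN and 8.68 and 5.41 with TPA. Nfkbie, which holds NF-κB in the cytoplasm, was at 1.19, 2.28 and 1.85, then 11.97 and 13.6 and 8.2002 and 3.74, and Nfkbid, a nuclear member of that inhibitor family, at 0.614, 1.04 and 1.33, then 4.19 and 10.5 and 6.34 and 2.96. The BAPN libraries were the highest for Bcl3, Tnfaip3 and Nfkbie.

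Rel, a subunit typical of lymphocytes, was at 0.4603, 0.431 and 0.361 against 3.19 and 5.55 and 2.16 and 1.36. Nfkbia, the best-known feedback inhibitor, did not share this order: it was at 224, 27.6 and 299 with an agent, 272 and 226 with BAPN and 76.96 and 77.9 with TPA, so T-5224 replicate 1 was the lowest library and T-5224 replicate 2 the highest. Without T-5224 replicate 2 the NF-κB list had 11 and the AP-1 list 7 members that were lower without overlap, beside 18.4% of all genes there. In TPM these counts were 1 and 0, with 2 members of each list higher, beside 1.45% lower and 45.8% higher of all genes.

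The promoter windows of 4 separated genes are shown because they hold the letters AP-1 or its CREB and ATF relatives bind. RefSeq windows on GRCm38.p6, from 250 bases before to 50 after a start site of the gene, were searched on both strands. The letters sought were TGACTCA (AP-1) and TGACGTCA (the cAMP response element, CRE), and matches of the 2 motifs cannot overlap. Capitals mark the match, and each window reads 5′ to 3′ on the strand of the gene.
Il6, chr5:30012864-30013163, plus strand: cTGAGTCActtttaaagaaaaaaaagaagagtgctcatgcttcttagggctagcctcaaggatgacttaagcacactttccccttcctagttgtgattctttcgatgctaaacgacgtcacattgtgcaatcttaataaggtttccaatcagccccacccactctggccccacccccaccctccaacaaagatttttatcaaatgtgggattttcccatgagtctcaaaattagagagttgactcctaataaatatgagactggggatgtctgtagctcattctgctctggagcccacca
Nfkbie, chr17:45555450-45555749, plus strand: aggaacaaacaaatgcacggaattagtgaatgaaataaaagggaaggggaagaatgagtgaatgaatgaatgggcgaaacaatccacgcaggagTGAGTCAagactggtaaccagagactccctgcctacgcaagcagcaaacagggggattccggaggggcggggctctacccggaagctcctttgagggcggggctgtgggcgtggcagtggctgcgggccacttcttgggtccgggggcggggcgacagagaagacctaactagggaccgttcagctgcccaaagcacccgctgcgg
F3, chr3:121723287-121723586, plus strand: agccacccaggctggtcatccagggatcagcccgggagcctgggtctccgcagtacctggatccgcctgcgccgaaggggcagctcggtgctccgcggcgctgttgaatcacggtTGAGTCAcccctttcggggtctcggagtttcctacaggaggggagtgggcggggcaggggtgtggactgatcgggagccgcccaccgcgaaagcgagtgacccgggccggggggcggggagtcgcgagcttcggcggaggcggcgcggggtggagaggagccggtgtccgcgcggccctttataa
Has1, chr17:17855139-17855438, minus strand: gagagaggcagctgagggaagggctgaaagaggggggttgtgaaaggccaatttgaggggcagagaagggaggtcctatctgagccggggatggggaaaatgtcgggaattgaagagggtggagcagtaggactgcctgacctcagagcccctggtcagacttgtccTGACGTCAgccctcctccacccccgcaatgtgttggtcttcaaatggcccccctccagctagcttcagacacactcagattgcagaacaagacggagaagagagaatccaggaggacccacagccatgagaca

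The AP-1 letters lie in Il6 at position -249 from the start site of the window, in Nfkbie at -156 and in F3 at -135. The CRE letters lie in Has1 at -83. The Has1 window lies inside the RefSeq coordinates of the gene (chr17:17833691-17855589). Its -83 therefore counts from a start site within the gene, not from the outer end of the gene. Of all 32851 promoter windows, 1709 (5.20%) held the AP-1 letters and 588 (1.79%) the CRE letters. Counted by gene, 463 (4.67%) and 342 (3.45%) of the 9904 tested genes with a window held them in any of their windows. The 4 windows were chosen for holding a match: those of Cxcl1, Il1b, Icam1, Junb, Fosb and Zfp36 held neither motif. Of 15 immediate early genes outside AP-1 with a window, 0 held the AP-1 letters and 2 the CRE letters. A match is a description of these letters and not a binding site. Since 76.4% of the tested genes had a window, under the 80% set for such a comparison, shares were not compared between gene groups.

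Has1 and the thrombospondin genes Thbs4 and Thbs1 were lower without overlap. Has1 (chr17:17833691-17855589), a hyaluronan synthase that builds a swollen, water-rich matrix, was at 1.202 with coQ10, 0.512 and 0 with T-5224, 66.3 and 24.7 with BAPN alone and 12.7 and 17.5 with TPA. It was near 0 in all libraries with an agent and in the normal libraries (0.981 and 0.733), and BAPN replicate 1 was the highest. The difference was -4.11 ± 0.55 (SE) (limma, adjusted p = 0.117), with a gap of 2.64. Thbs4, a thrombospondin of tendon and vessel matrix, was at 1.94, 2.41 and 4.32 with an agent, 17.8 and 64.5 with BAPN and 16.9 and 40.5 with TPA. Thbs1, which activates latent TGF-β, was at 57.3, 77.5 and 7.23, then 200.5 and 157 and 181 and 119.9, with T-5224 replicate 2 the lowest.

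Of 10 genes of plasminogen activation and coagulation 9 were tested, and 2 were lower without overlap, beside 9.18% of all tested genes. F3, tissue factor, which starts coagulation, was at 32.3 with coQ10, 29.2 and 45.2 with T-5224, 94.5 and 87.5 with BAPN alone and 66.2 and 68.1 with TPA, a difference of -1.14 ± 0.27 (SE) that turned to 0.12 in TPM. Thbd, thrombomodulin, an endothelial brake on coagulation, was at 33.9, 18.8 and 9.09 with an agent, 143 and 89.8 with BAPN and 43.9 and 39.3 with TPA. Of 8 adhesion molecules 1 was lower without overlap, and so was 1 of 12 endothelial markers, both near the 9.18% of all tested genes. The adhesion molecule was Icam1, which holds leukocytes to endothelium, at 18.02, 13.1 and 10.1, then 143 and 134 and 27.98 and 21.99. The endothelial marker was Vwf, at 9.77 to 11.7 against 18.9 to 26.3, and its difference of -0.98 turned to 0.23 in TPM.

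Matrix proteases and their inhibitors were split, with 4 of 17 lower (Mmp3, Mmp8, Adamts1 and Adamts5) and 1 higher (Adamts15) without overlap. Over all tested genes 9.18% were lower and 3.52% higher without overlap. Adamts1, an aggrecan- and versican-cleaving protease, was at 60.3, 44.8 and 13.6 with an agent, 123 and 118 with BAPN and 73.4 and 75.6 with TPA. Adamts15, another versican-cleaving enzyme, was at 21.4, 5.25 and 5.91, then 1.44 and 0.937 and 4.59 and 3.41, so T-5224 replicate 1 came within 0.16 log2 of TPA replicate 1. Of 9 fibrillar collagens 1 (Col5a3, at 0.778 to 4.26 against 9.14 to 22.4) was lower without overlap, near the share of all tested genes. The median of the collagen list was 0.03.

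Lymphocyte genes were low in all 3 libraries with an agent. Of 10 B cell markers 8 were found and tested, and all 8 were lower without overlap. Of 11 T cell markers 10 were found and 9 tested, and 7 were lower without overlap (8 of 10 without the filter on low values). Of all tested genes 9.18% were lower without overlap. The median differences of the B and T cell lists were -2.98 and -2.52, and 0 genes passed. The summed level of the B cell markers was 4.28 to 11.2 scaled FPKM with an agent and 30.1 to 719 without one, and that of the T cell markers 4.47 to 14.6 and 30.9 to 259. Cd79a (chr7:24897497-24901858), a subunit of the B cell receptor, was at 1.09 with coQ10, 3.19 and 1.59 with T-5224, 22.97 and 145 with BAPN alone and 70.5 and 12.6 with TPA. BAPN replicate 2 was the highest and TPA replicate 2 the lowest of its side, and normal replicate 1 (8.34) exceeded the libraries with an agent. Cd3g, a subunit of the T cell receptor complex, was at 1.44, 1.81 and 0 with an agent, 7.19 and 57.5 with BAPN and 25.6 and 20.8 with TPA. Lck, the kinase that starts T cell receptor signalling, was at 1.04, 1.45 and 2.496, then 5.51 and 52.2 and 13.8 and 14.1. In bulk tissue, fewer cells of a type and less RNA per cell cannot be told apart.

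The lymphoid genes with the widest gaps showed the same library on top. Ccr7, H2-Oa, Acap1, Tbc1d10c and Rltpr had a mean under 1 scaled FPKM with an agent. They met the filter only through the other side. Ccr7, the receptor that guides lymphocytes to lymph nodes, was at 0.588 with coQ10, 1.097 and 0.826 with T-5224, 8.62 and 45.99 with BAPN alone and 10.4 and 6.55 with TPA, a difference of -2.94 ± 0.59 (SE). H2-Oa, which tunes peptide loading in B cells, was at 0.196, 0.171 and 0, then 5.78 and 35.1 and 10.6 and 6.72. Acap1 and Tbc1d10c, a pair of genes found mostly in lymphocytes, were at 0.474 to 0.872 against 6.92 to 81.6 and 0.153 to 0.5599 against 5.07 to 44.4. Rltpr, a regulator of T cell co-stimulation, was at 0.142 to 0.449 against 6.26 to 36.5. For Ccr7, H2-Oa, Acap1, Tbc1d10c and Rltpr the highest library was BAPN replicate 2, and so it was for Pax5, the B cell identity factor, at 305 there against 21.4 in BAPN replicate 1. Without that library the counts were 8 of 8 B cell and 7 of 9 T cell markers, beside 10.2% of all genes.

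Nerve transcripts formed another separated group. Of 13 nerve and Schwann cell markers 9 were lower without overlap, beside 9.18% of all tested genes. None of the markers was higher without overlap, 12 of the 13 differences were below 0, and the median difference was -2.10. Their summed level was 238 to 288 scaled FPKM with an agent and 365 to 1176 without one. Ngfr, the low-affinity nerve growth factor receptor of Schwann cells, was at 0.656 with coQ10, 0.0629 and 3.83 with T-5224, 69.8 and 71.1 with BAPN alone and 11.4 and 28.9 with TPA. Nefl, the light neurofilament of axons, was at 0.435, 0.656 and 3.55 with an agent, 34.7 and 50.01 with BAPN and 7.83 and 15.5 with TPA. The normal libraries differed from each other for both, with Ngfr at 17.4 and 0.406.

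Several genes known from secretory or nerve cells were lower without overlap. All those given here had a mean under 1 scaled FPKM with an agent and met the filter only through the other side. Resp18 (chr1:75272197-75278415), a protein of dense-core secretory vesicles, was at 0 with coQ10, 0.162 and 0.247 with T-5224, 37.02 and 41.3 with BAPN alone and 6.71 and 12.2 with TPA, a difference of -4.15 ± 0.59 (SE) (limma, adjusted p = 0.117). Scg3, a granin that sorts cargo into such vesicles, was at 0.861, 0.377 and 1.52 with an agent, 32.5 and 45.4 with BAPN and 8.72 and 10.02 with TPA. Vip, a vasodilating neuropeptide, was at 0.0597, 0.108 and 0.579, then 14.3 and 8.98 and 4.34 and 5.72. Colq, the collagen tail that anchors acetylcholinesterase at nerve endings, was at 0.264, 0.02696 and 0, then 5.07 and 5.599 and 4.63 and 3.48. Dapl1, a gene with a gap of 1.90, was listed at 0 in the coQ10 library and T-5224 replicate 2, at 1.34 in T-5224 replicate 1, at 7.73 and 38.95 with BAPN and at 22.8 and 20.99 with TPA. Gal, the neuropeptide galanin, was listed at 0 in all 3 libraries with an agent and at 85.9 and 118 with BAPN and 1.15 and 14.4 with TPA.

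The wider sympathetic neuron list separated less. Of 13 members 2 (Chgb and Gal) were lower without overlap, beside 9.18% of all tested genes. All 13 differences were nevertheless below 0, and the median of the list was -3.54. Its mean log2 level was 1.39 with coQ10, 1.03 and 3.76 with T-5224, 6.94 and 7.44 with BAPN alone and 2.74 and 5.27 with TPA. T-5224 replicate 2 thus exceeded TPA replicate 1. Without T-5224 replicate 2 there were 12 of 13 members lower without overlap, beside 18.4% of all genes, and without TPA replicate 1 also 12, beside 12.3%.

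Among the 7 libraries, red cell markers were lowest with coQ10 and highest in the 4 libraries without an agent, as the haemoglobin shares were, whereas neutrophil markers had another order. Of 10 tested red cell markers 6 were lower without overlap, beside 9.18% of all tested genes. The median difference of the markers was -3.35, and the list mean was 6.43 to 9.60 log2 with an agent and 10.5 to 10.8 without one. Hba-a1, an α-globin gene, was at 11997, 167390.0 and 57289 with an agent, 646650.0 and 816370.0 with BAPN and 553760.0 and 608610.0 with TPA. Alas2, which starts haem synthesis in red cell precursors, was at 70.95 with coQ10, 949 and 118 with T-5224, 3227 and 3844 with BAPN alone and 2653 and 2283 with TPA, and the normal libraries were at 13.1 and 11.1. T-5224 replicate 1 was the highest library with an agent. Without it all 10 red cell markers were lower without overlap, beside 14.7% of all genes. There 3 of them passed, beside 12 of 13006 tested genes. Of 12 neutrophil markers 9 were tested and 3 were lower without overlap (3 of 12 without the filter), at a summed level of 88.4 to 378 scaled FPKM with an agent and 354 to 2349 without one, with S100a9, a calcium-binding protein of neutrophils, at 45.1, 60.7 and 96.3 with an agent, 1240.4 and 791 with BAPN and 393 and 145 with TPA. Retnlg, a neutrophil-borne resistin-like protein, was at 5.21, 0.207 and 17.6, then 132 and 69.4 and 101 and 25.8.

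Platelet markers had 0 of 9 members without overlap, with a mean log2 level of 4.71 in T-5224 replicate 1 against 1.82 and 1.54 in the other libraries with an agent and 3.43 to 5.28 without one. Macrophage markers had 1 of 13 (Cd14) lower without overlap, near the 9.18% of all tested genes. The median of the macrophage list was -0.39, and its means were 3.78 to 4.53 with an agent and 3.66 to 5.00 without one. The part of blood content in the cytokine, NF-κB and lymphocyte differences was not tested.

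Skeletal muscle transcripts, which aortic smooth muscle lacks, had the lowest median difference of all gene lists. Beside 9.18% of all tested genes, 4 of 16 markers (Myh4, Myl1, Pvalb and Mybpc2) were lower without overlap, with a median difference of -4.37. Their summed level was 127 to 10612 scaled FPKM with an agent and 3538 to 22259 without one. Myh4, a fast skeletal myosin heavy chain, was at 0.4603 with coQ10, 0.00899 and 11.7 with T-5224, 25.2 and 75.9 with BAPN alone and 78.8 and 148 with TPA. T-5224 replicate 2 held the most of the 3 libraries with an agent, and its list mean (7.59) exceeded both BAPN libraries (7.01 and 6.84). Without T-5224 replicate 2, 15 of 16 were lower without overlap, beside 18.4% of all genes. There 11 of them passed, beside 80 of 13001 tested genes. Normal replicates 1 and 2 had list means of 6.11 and 1.54, so the amount varied within that treatment too.

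**Figure D3:**
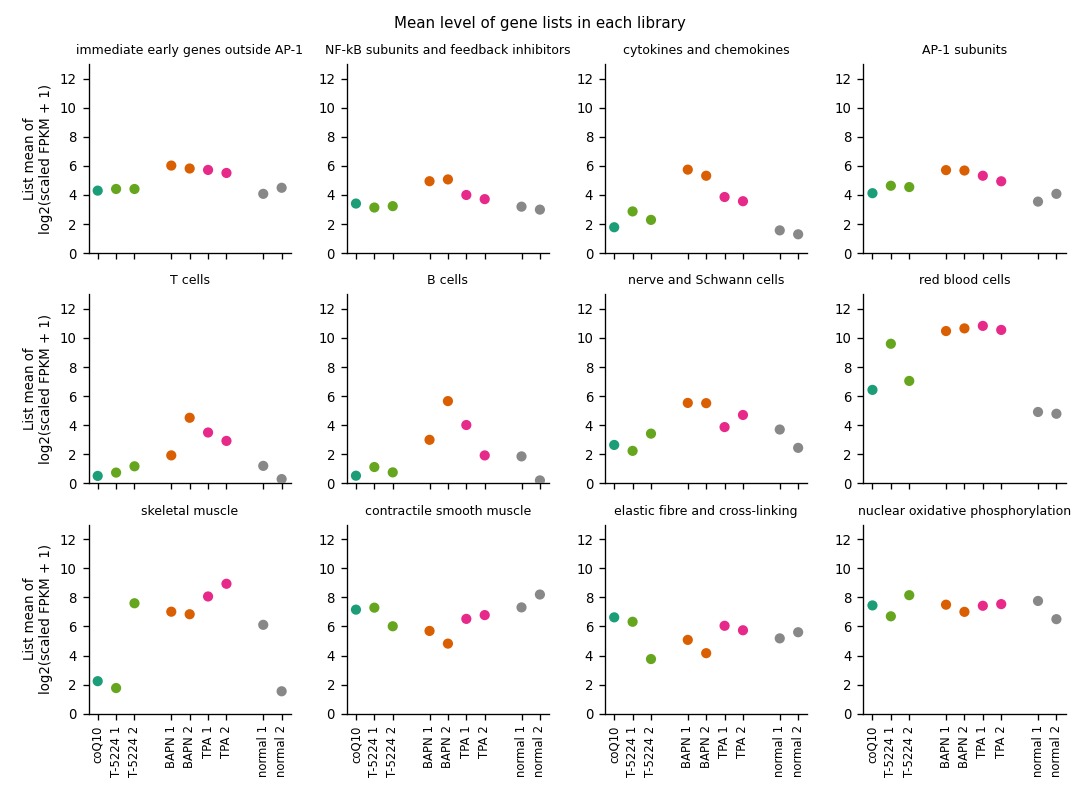
Each panel shows 1 gene list; points are the mean of log2 (scaled FPKM + 1) over its tested members in each library, on a shared y axis from 0 to 13. Immediate early genes, NF-κB genes, T cells and B cells show the 3 libraries with an agent below the other 4, whereas for skeletal muscle and the elastic fibre list T-5224 replicate 2 departs from the coQ10 library and T-5224 replicate 1.

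The widest gap on the higher side was that of Id1 (chr2:152736251-152737410), an inhibitor of basic helix-loop-helix factors and a known target of bone morphogenetic protein signalling. It was at 174 with coQ10, 195 and 321 with T-5224, 57.6 and 36.3 with BAPN alone and 67.6 and 48.5 with TPA. No library without an agent exceeded 67.6, and the normal libraries were at 181 and 346. The difference was 2.09 ± 0.33 (SE) (limma, adjusted p = 0.145), with a gap of 1.35. Id2, a related inhibitor, was at 95.2 with coQ10, 168 and 85.1 with T-5224, 39.2 and 34.99 with BAPN alone and 44.4 and 39.98 with TPA, a difference of 1.47 ± 0.29 (SE). T-5224 replicate 1 was the highest of the 3 libraries with an agent and T-5224 replicate 2 the lowest, and the normal libraries stood at 56.7 and 173.

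Atoh8 (chr6:72206174-72235780), itself a basic helix-loop-helix factor, was at 54.6 with coQ10, 45.5 and 30.5 with T-5224, 8.86 and 3.35 with BAPN alone and 13.6 and 16.5 with TPA. BAPN replicate 2 was the lowest library, and the normal libraries stood at 26.7 and 116. Tbx18, a factor of mural cells and their progenitors, was at 9.06, 17.7 and 8.81 with an agent, 2.76 and 1.16 with BAPN and 4.38 and 4.38 with TPA. Nfia, a member of the nuclear factor I family, was at 15.4, 16.5 and 22.8, then 7.88 and 6.67 and 7.62 and 8.798. H1f0, a linker histone of non-dividing cells, was at 122, 128 and 197, then 63.9 and 61.95 and 56.3 and 55.6, and its normal libraries (44.4 and 29.6) lay below both sides.

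Structural and adhesion genes were present in this group. Lims2, a scaffold of integrin adhesions, was at 164 with coQ10, 126 and 130.0 with T-5224, 36.2 and 27.6 with BAPN alone and 48.4 and 66.2 with TPA, a difference of 1.69 ± 0.33 (SE). Pkp4, a junction protein of the p120-catenin family, was at 88.97, 56.5 and 86.5 with an agent, 26.1 and 26.7 with BAPN and 29.2 and 32.4 with TPA. Fbxl22, an F-box protein of the muscle Z-disc, was at 12.9, 20.6 and 7.22, then 2.11 and 0.745 and 3.68 and 3.68. Vwc2, a secreted antagonist of bone morphogenetic proteins, was at 2.69 to 4.06 against 0.308 to 1.18. Against the 2 BAPN libraries alone, Atoh8 (adjusted p = 0.0479) and Lims2 (0.0413) passed limma's test, together with Id4 and Perp.

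The other genes with the widest gaps on the higher side are a cytokine receptor gene and genes with housekeeping or less described roles. Il11ra1, the receptor of interleukin-11, was at 121 to 153 against 49.7 to 70.5. Ccdc107 was at 60.9 to 105 against 24.6 to 30.8, and Emc8, a subunit of the complex that inserts proteins into the endoplasmic reticulum, at 17.9 to 32.4 against 6.47 to 9.78. Tmem203 was at 18.4 to 22.5 against 4.604 to 10.5 and N6amt1, a methyltransferase, at 12.5 to 14.03 against 6.78 to 7.17. In each of these 5 genes the 3 libraries with an agent lay above the highest of the other 4, by a gap of 0.73 to 0.96 log2.

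Clock genes gave 2 members higher and 1 lower without overlap of 18 tested, against 3.52% and 9.18% of all genes. Nr1d1, the repressor REV-ERBα of the circadian loop, was at 103 with coQ10, 40.97 and 59.9 with T-5224, 17.9 and 16.9 with BAPN alone and 20.97 and 27.9 with TPA, a difference of 1.58 ± 0.35 (SE). Ciart, a repressor of the CLOCK complex, was at 37.3, 5.096 and 2.71 with an agent, 0.209 and 2.31 with BAPN and 1.88 and 2.396 with TPA, so that T-5224 replicate 2 lay within 0.13 log2 of TPA replicate 2. Bhlhe40, a repressor that answers light, hypoxia and cytokines, was at 33.95, 22.4 and 27.2, then 81.7 and 79.7 and 48.9 and 52.3, and its difference of -1.19 turned to 0.07 in TPM. The hour of killing is unknown, and its part in these differences was not tested.

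Contractile smooth muscle genes were higher on average, but the count without overlap changed when T-5224 replicate 2 was left out. Of 20 members 1 (Tagln) was higher without overlap, near the 3.52% of all tested genes. The median difference of the list was 1.20, and 0 passed. Tagln, the smooth muscle actin-binding protein transgelin, was at 2840.1 with coQ10, 3099 and 1486 with T-5224, 1208 and 461 with BAPN alone and 800.2 and 977 with TPA, a difference of 1.53 ± 0.49 (SE). Acta2, smooth muscle actin, was at 4274 with coQ10, 6351 and 1239.5 with T-5224, 915 and 316 with BAPN alone and 1183 and 1598 with TPA, so that T-5224 replicate 2 lay between the TPA libraries. Myh11, smooth muscle myosin, was at 741, 990.4 and 47.7 with an agent, 92.6 and 64.3 with BAPN and 203 and 303 with TPA, and T-5224 replicate 2 was the lowest of all 7 libraries.

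Without T-5224 replicate 2 the contractile list had 13 of 20 members higher and 2 lower without overlap, beside 13.8% higher and 18.4% lower of all genes. The elastic fibre and cross-linking list, which holds the lysyl oxidases that BAPN blocks, went from 0 of 20 to 14 of 20 members higher without overlap, and its median from 0.57 to 1.43. Fibrillar collagens went from 0 to 6 of 9 higher, basement membrane genes from 0 to 9 of 16 and TGF-β response genes from 0 to 6 of 14. The transcript-length trend of T-5224 replicate 2 stands beside these counts, and its part in them was not tested. Against the TPA libraries alone, with all 3 libraries with an agent, the elastic fibre median was -0.39 and 4 of 20 members were lower without overlap, near the 18.9% of all genes in that setting.

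Genes of energy metabolism showed no separation. None of 11 coenzyme Q biosynthesis genes, 28 nuclear-encoded subunits of oxidative phosphorylation, 16 genes of mitochondrial biogenesis and dynamics or 17 fatty acid oxidation genes was free of overlap, and their median differences were -0.11, 0.09, -0.12 and 0.03. Antioxidant genes had 1 of 21 (Prdx2, abundant in red cells) lower without overlap. All 21 genes of hypoxia and glycolysis had differences below 0, with a median of -0.42, but none was free of overlap, and without T-5224 replicate 2 there were 8 lower, beside 18.4% of all genes. Cytosolic ribosomal proteins and proteasome subunits had medians of 0.27 and 0.19 and no member without overlap among 26 and 25. T-5224 replicate 2 was highest for both, with mean log2 levels of 11.7 and 6.96. The ribosomal mean was 9.47 with coQ10, 9.45 in T-5224 replicate 1, 10.3 and 10.6 with BAPN and 9.44 and 9.48 with TPA. The proteasome mean was 6.13, 6.34, 6.62 and 6.38, and 6.02 and 6.18 in the same order. Heat shock genes had 2 of 17 lower (Hspa8 and Dnaja1) and 1 higher (Hspb7) without overlap. Unfolded protein response genes had 1 of 18 higher (Creld2) and interferon response genes 1 of 19 lower (Irf1). The antioxidant, heat shock, unfolded protein response and interferon counts lay near the shares over all tested genes, 9.18% lower and 3.52% higher. The lists of this paragraph with no member free of overlap lay below both shares.

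**Figure D4:**
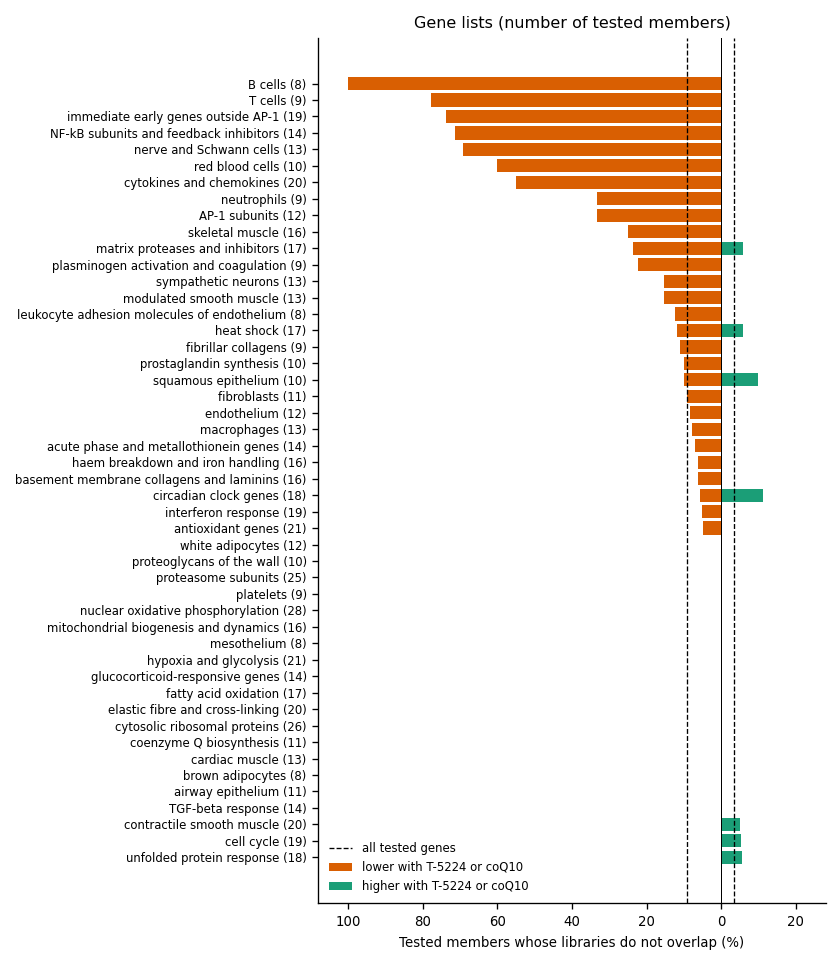
Bars give, for each gene list with at least 8 tested members (number in brackets), the percentage of tested members whose libraries do not overlap, to the left for lower and to the right for higher with T-5224 or coQ10; dashed lines mark the same percentage over all tested genes (9.18% and 3.52%). B cells (8 of 8), T cells (7 of 9), immediate early genes (14 of 19) and NF-κB genes (10 of 14) lie far beyond the line, and lists of mitochondrial genes have no bar. The lists were chosen with earlier results of these data known.

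Within the side without an agent, BAPN and TPA were not alike. Among the 1190 lower genes both BAPN libraries exceeded both TPA libraries in 559 (47.0%), and both TPA libraries exceeded both BAPN libraries in 123 (10.3%), whereas these shares were 29.4% and 31.8% over all tested genes. Among the 456 higher genes they were 12.1% and 33.8%. For the lower genes the nearest library without an agent was TPA replicate 1 in 38.9%, TPA replicate 2 in 29.5%, BAPN replicate 1 in 22.3% and BAPN replicate 2 in 9.33%. For the higher genes it was BAPN replicate 1 in 30.9%, TPA replicate 1 in 28.95%, TPA replicate 2 in 26.8% and BAPN replicate 2 in 13.4%, so the TPA libraries were the nearest more often for the lower genes than for the higher ones. On the side with an agent the nearest library of the lower genes was T-5224 replicate 1 in 36.0%, T-5224 replicate 2 in 33.4% and coQ10 in 30.7%, so no single library with an agent set the gap.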

How the data were processed

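Trizol extraction preceded TruSeq RNA library preparation, per the labels' protocols. The authors deposited FPKM per gene symbol for each library, rounded to 2 decimals, with the build mm10 named per the submitters' processing notes. The aligner, the counter and the annotation are unknown. A gene not listed in a library was set to 0. Of 17179 symbols 16458 (95.8%) matched RefSeq.

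FPKM were divided by a median-of-ratios factor per library, and genes with a mean of at least 1 over the 7 libraries were transformed to log2 (value + 1) and fitted in limma 3.58.1 (R 4.3.3) with the side as the single term, an intensity trend and two-sided p-values adjusted by the Benjamini-Hochberg method over 12958 genes. The script was tested on simulated data. A log2 difference on this scale understates the change of low genes. Lists are described by counts and medians beside those of all genes, with no test of their own. Named genes were the 15 widest gaps in each direction without clone-like symbols, up to 4 members of each list by smallest p, and all AP-1 subunits, and the text gives a selection of the list members. Csf3, Nfkbia, Acta2, Myh11 and genes named only in counts were chosen after their values were seen. The comparison and the lists were chosen with earlier results of these data known. Coordinates came from RefSeq (GRCm38.p6) and transcript lengths from GENCODE release M21, for 97.4% of tested genes. The other tools were statsmodels 0.14.6, scipy 1.17.1, matplotlib 3.10.9, numpy 2.4.6 and pandas 2.3.3 under Python 3.11.15. Alternatives covered scaling, pseudocounts of 0.1 and 5, the filter, the model, the groups pooled and the leaving out of each library. The depth is unknown, so no counting interval was computed.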

Additional observations from a re-analysis of the deposited data

Results flagged for a closer look

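The 4 libraries without an agent were checked for a single library far from the other 3 in each of 89 genes, by Dixon's ratio on the log2 scale at its 95% critical value. In 5 genes a library stood apart, and chance alone flags about 1 gene in 20. Junb was at 233 scaled FPKM in TPA replicate 2 against 341 to 358 in the other 3 libraries. Vwc2 was at 0.308 in BAPN replicate 2 against 1.09 to 1.18, and Emc8 at 6.47 in the same library against 9.45 to 9.78. Tmem203 was at 4.604 in BAPN replicate 1 against 9.67 to 10.5, and Ciart at 0.209 there against 1.88 to 2.40. For Vwc2, Emc8, Tmem203 and Ciart the library that stood apart was the one farthest from the libraries with an agent, and for Junb it was the nearest.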

How the results depend on the processing

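No gene passed with the scaling used, nor with values as deposited, haemoglobin left out of the sum, upper-quartile scaling, quantile normalization, the length trend removed, either pseudocount, no filter, a mean of at least 5 or no intensity trend. In TPM 5095 passed (4920 higher, 175 lower), with each treatment as a group 14 lower genes over 9 libraries and 4 over 7, against BAPN only 264 (4 higher, 260 lower) and against TPA only 8, all lower. Leaving out 1 library gave 0 to 80 passing genes (0 to 17 higher, 0 to 63 lower), the most without T-5224 replicate 2. Genes without overlap numbered 1646 (456 higher, 1190 lower), and 2546 (1939 and 607) as deposited, 5918 (5736 and 182) in TPM, 1002 higher and 629 lower with quantile normalization, 182 higher with haemoglobin left out, 699 higher with the length trend removed and 1023 (634 lower) at a mean of at least 5. They numbered 3925 (1359 and 2566) against BAPN only and 3756 (1343 and 2413) against TPA only, where fewer libraries had to be cleared. Leaving out 1 library gave 1885 to 4192 (583 to 1797 higher, 1302 to 2395 lower).

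Among the 89 genes checked, the log2 difference turned sign in TPM for Fosl2 (0.26), Jun (0.85), Junb (0.22), Atf2 (0.97), Jdp2 (0.99), Nfkbia (1.11), F3 (0.12), Vwf (0.23) and Bhlhe40 (0.069), where all genes had a median of 1.03. As deposited it turned for Atf2 (0.16), Jdp2 (0.13) and Nfkbia (0.22), and Jund turned to -0.0909 against BAPN only. Nfkbia also turned to 0.046 with each treatment as a group (9 or 7 libraries), to 0.67 against TPA only, and leaving out 1 library put it between -0.80 (without T-5224 replicate 2) and 0.89 (without T-5224 replicate 1); the cause of these turns was not tested. With the replicate block 0 genes passed and 1568 had an unadjusted p under 0.05, against 1704 without it. The numbers do not pair the libraries: deviations of same-numbered libraries had r of -0.143 (BAPN and TPA), 0.007 (BAPN and T-5224) and 0.177 (TPA and T-5224). Unknown depth limits what can be said of values near 0.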

Other observations

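Squamous epithelial keratins set the TPA libraries apart from the other 5 libraries of the comparison. Krt13, a keratin of lining epithelia such as the oesophagus, was at 101 and 232 scaled FPKM with TPA, 0.246 and 0.334 with BAPN alone and at most 0.216 with an agent. Krt5, of basal epithelial cells, was at 87.9 and 211 with TPA and at most 1.03 in the other 5 libraries. Against the TPA libraries alone the 8 genes that passed limma's test, all lower with an agent, were Krt13, Krt5, Krt15, Krt4, Krtdap, Mt4, Sbk2 and Myh8. Myh8, a perinatal skeletal myosin, was at 655 and 1170 with TPA and at 0.384 to 0.591 in the other 5 libraries.

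Airway and mesothelial genes followed no side. Scgb1a1, the secretoglobin of airway club cells, was at 3056 in T-5224 replicate 2, 9470.0 and 2740.3 with TPA, 7136 in normal replicate 1 and 10.1 to 19.2 in the remaining 4 of the 7 libraries compared. Upk3b, of mesothelium, was at 32.5 with coQ10, 2.54 and 36.9 with T-5224, 0 and 0.0642 with BAPN alone and 6.82 and 7.08 with TPA.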
